A study of Homo sapiens with 2 samples.

Results

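The genes described are the transcriptional coactivators YAP1 and WWTR1 (the gene of TAZ), their DNA-binding partners TEAD1 and TEAD4, the regulators LATS2, AMOTL2 and AJUBA, and the target genes AXL, CRIM1 and MYOF. They were picked by name, with earlier results of these data known. Every array probe set whose single annotated gene symbol was one of these names was taken. This gave 28 of the 54675 probe sets for 10 of 19775 named genes. The samples were QGP1 cells, a human line of pancreatic neuroendocrine tumour cells, sorted by flow cytometry for high activity of aldehyde dehydrogenase (ALDH), and control QGP1 cells for which the labels state no sort. The ALDH-high fraction was profiled to obtain the expression profile of tumour stem cells, with 1 Affymetrix array per group. Values are log2 levels from RMA, and each comparison is the level in ALDH-high cells minus the level in control cells. With 1 array in each group no difference has a replicate check and no test was possible. In such bulk samples, fewer cells that express a gene and less RNA per cell cannot be told apart.

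YAP and TAZ do not bind DNA themselves. They enter the nucleus and activate transcription through TEAD factors. The Hippo pathway holds them back: the kinases LATS1 and LATS2 phosphorylate them, after which 14-3-3 proteins retain them in the cytoplasm and F-box proteins mark them for degradation. Genes that YAP and TAZ switch on include several of their own inhibitors, among them LATS2 and AMOTL2, which makes the pathway a feedback loop. In epithelia its output depends on cell density, shape and attachment. This control acts mainly on the proteins, and mRNA levels do not measure it.

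TEAD factors bind a short element whose core reads GGAATG, or CATTCC on the other strand. That core was searched on both strands in windows from 250 bases before to 50 bases after the transcription start, taken from RefSeq (GRCh38.p14). Promoters of 7 of the 10 genes, 11 windows in all, were matched, and those of TEAD1, TEAD4 and CRIM1 were not. The core occurred in 5 of the 11 windows, 1 for each of 5 genes, whereas 14.0% of all 35116 promoter windows held it. By gene that was 5 of 7, against 16.7% of 27305 genes. The genes were picked by name as parts or targets of this pathway, so the contrast is a description and not a test. The AP-1 element TGANTCA, bound by FOS and JUN dimers, which often act beside TEADs, can share 2 letters with the TEAD core. It occurred in 0 of the 11 windows and in 7.71% of all windows. A match is a run of letters, not a measured binding site. The windows of the pair of genes with the largest positive differences are shown first, as the 250 bases before the start, 5′ to 3′ on the gene's strand, with the TEAD core in capitals. The YAP1 window (chr11:102110197-102110446, plus strand) holds the core 162 bases before the start and the MYOF window (chr10:93482335-93482584, minus strand) holds none.
YAP1: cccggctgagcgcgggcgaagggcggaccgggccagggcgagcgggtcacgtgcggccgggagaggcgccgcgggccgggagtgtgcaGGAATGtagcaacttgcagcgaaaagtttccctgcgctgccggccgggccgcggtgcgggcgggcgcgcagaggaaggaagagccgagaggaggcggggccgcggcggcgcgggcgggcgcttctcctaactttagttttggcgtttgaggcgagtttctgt
MYOF: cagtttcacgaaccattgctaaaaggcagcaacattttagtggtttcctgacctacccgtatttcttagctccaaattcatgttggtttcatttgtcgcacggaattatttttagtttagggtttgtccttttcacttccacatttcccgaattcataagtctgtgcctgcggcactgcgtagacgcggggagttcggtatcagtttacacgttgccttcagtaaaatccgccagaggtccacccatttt

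The 5 matches are compared below in stretches of 30 bases with the core in capitals, to show the bases around it in these promoters. They lie at chr11:102110273-102110302 (YAP1, plus strand), chr13:21061560-21061589 (LATS2, minus strand), chr3:134374499-134374528 (AMOTL2, minus strand), chr14:22976884-22976913 (AJUBA, minus strand) and chr19:41226531-41226560 (AXL, plus strand). The LATS2 core begins at base 10 after the start, and the others lie before it, by 69 bases in AMOTL2, 59 in AJUBA and 212 in AXL. The matches of AMOTL2, AJUBA and AXL are in the second of the 2 starts listed for each gene.
YAP1: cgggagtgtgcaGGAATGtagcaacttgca
LATS2: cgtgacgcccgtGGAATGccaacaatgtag
AMOTL2: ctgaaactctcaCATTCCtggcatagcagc
AJUBA: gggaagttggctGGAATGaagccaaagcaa
AXL: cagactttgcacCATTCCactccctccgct

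The arrays covered the same range, with medians of 5.68 in ALDH-high cells and 5.69 in control cells. Quantile normalisation, a step of RMA, evens out such distributions, so their likeness is no check of the arrays. The arrays correlated at r = 0.992 across 54613 probe sets other than Affymetrix controls, which share both arrays and are not replicates. The poly-A control RNAs added before labelling were higher on the ALDH-high array by 0.32 (SD 0.07 over 24 probe sets) and the hybridisation controls by 0.05 (SD 0.04 over 18 probe sets). Probe sets of 1 gene differed from each other by a pooled SD of 0.23 where a gene had more than 1, a yardstick for the values below that leaves out the spread between cultures and sorts. Probe sets whose higher level lay below the median of 5.68 are called dim, since they leave little room for a lower value and the table has no detection calls. Of the 28 probe sets, 15 were at or above that median on at least 1 array, and 11 have IDs ending in _s_at, a mark of probes that can bind more than 1 transcript. The cells carried the neuroendocrine transcripts CHGA (chromogranin A), at 11.50 in ALDH-high and 11.70 in control cells, and SYP (synaptophysin), at 6.48 on both arrays. All 7 measured neuroendocrine markers differed by at most 0.34 between the arrays, with INSM1 at 0.34 and NCAM1 at -0.30. Of 5 epithelial markers none was over 2-fold different, the largest on the probe set of highest mean level being KRT19 (0.60) and CDH1 (-0.23). Their second probe sets were at -0.08 for KRT19, at a dim level, and -0.47 for CDH1.

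The target gene MYOF was the only one of the 10 genes past 2-fold, and was higher in ALDH-high cells than in control cells. Below that threshold YAP1 stood at 0.97, TEAD1 at 0.43 and LATS2 at -0.51, and the other 6 were within 0.30 of 0. Each gene's value was that of its main probe set, the one whose mean level over both arrays was highest. At the 2-fold threshold that the series used, 1 of the 10 genes was higher, MYOF, where 0.465% of all genes were. Because the 10 were chosen with earlier results of these data known, that contrast is a description and not a test. None of the 10 was over 2-fold lower, against 1.23% of all genes. By probe set, 2 of 28 were over 2-fold higher, both of MYOF, and 1 was lower, of LATS2 (0.403% and 0.842% of all probe sets). The median of the 10 differences was 0.22, against -0.01 over all genes, with 6 genes above 0 and 4 below. Over all 19775 genes, 9012 lay above 0, 9950 below and 813 were equal. Those counts are also the background for the counts above and below 0 of the further lists. The members' median of 0.22 is smaller than the 0.32 by which the poly-A controls were higher on the same array. Whether the control shift has a part in the small positive differences was not tested.

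**Figure D1:**
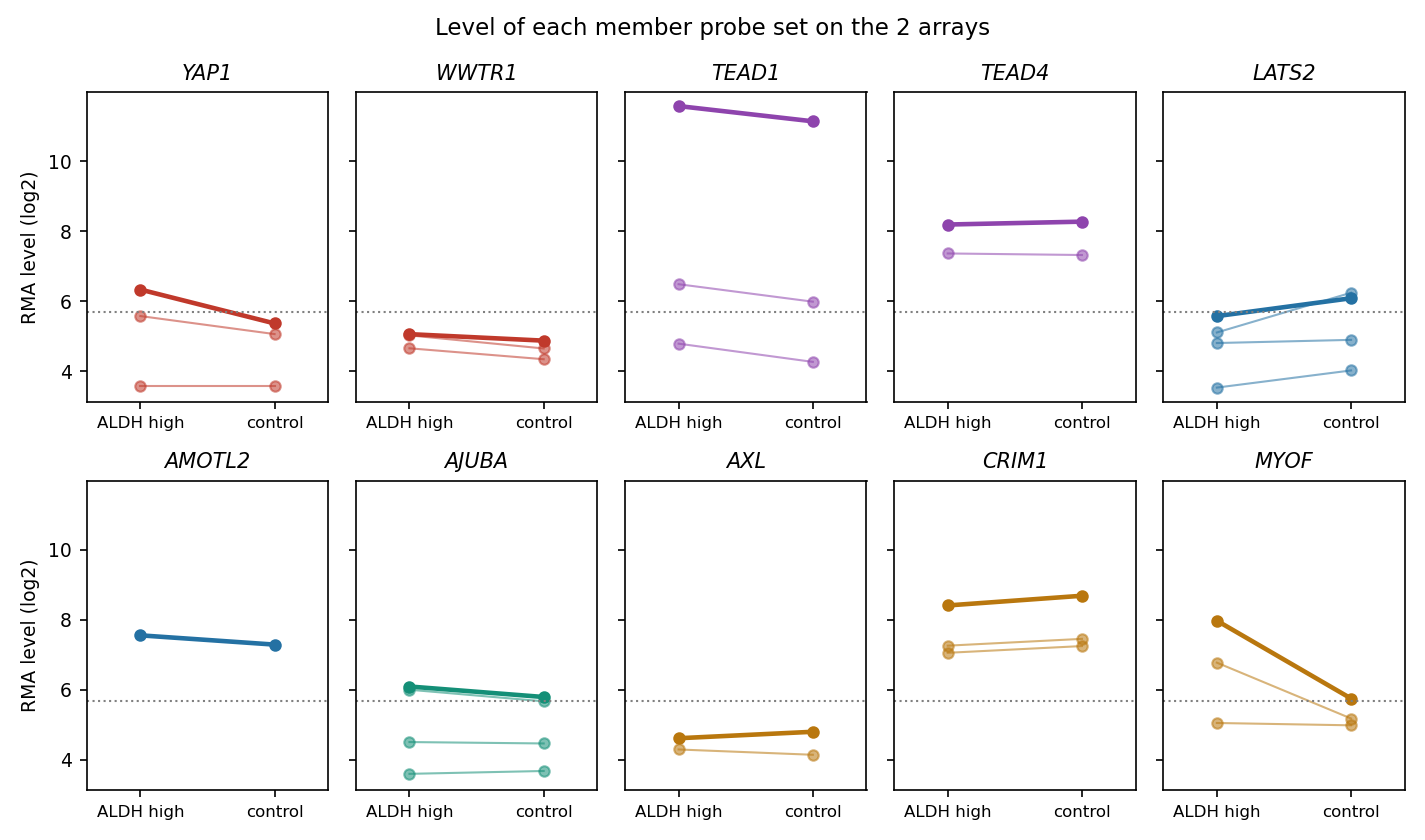
Log2 RMA level (vertical axis) of each of the 28 probe sets on the ALDH-high array (left point) and the control array (right point), in 1 panel per gene. The thick line is the main probe set and the dotted line the median of all probe sets, 5.68. The upper lines of MYOF slope down steeply from ALDH high to control, and all 4 lines of LATS2 slope up.

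YAP1, the coactivator that gives the pathway's output its name, came within a small margin of 2-fold. Its level was 6.34 in ALDH-high cells and 5.37 in control cells, a difference of 0.97 or 1.95-fold, and 105 of 19775 genes had a larger positive difference. At a 1.5-fold threshold YAP1 joined MYOF, so that 2 of the 10 genes were higher, against 2.61% of all genes. A second probe set, dim by the rule above, stood at 5.58 in ALDH-high cells and 5.07 in control cells (0.51). The third had exactly the same value on both arrays, 3.60, as did 2877 probe sets in all, and at that dim level it could show little. The mean over the 3 probe sets was 0.49.

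WWTR1 encodes TAZ, the paralog of YAP. All 3 of its probe sets were higher in ALDH-high cells, all at dim levels, and its main one by less than that of YAP1. The main one was 5.06 in ALDH-high cells and 4.88 in control cells (0.19). The other two differed by 0.37 and 0.31. Of genes with 3 probe sets, 22.7% had all of them higher, so a shared direction alone is common on these arrays.

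TEAD1 and TEAD4 encode TEAD factors, each of which can carry YAP or TAZ to DNA. TEAD1 was higher on all 3 probe sets by nearly the same amount. Its main probe set was 11.57 in ALDH-high cells and 11.13 in control cells (0.43, or 1.35-fold). The second was 6.49 in ALDH-high cells and 5.99 in control cells (0.50). The third was 4.79 in ALDH-high cells and 4.27 in control cells (0.52). These differences span 0.09 although the levels they start from are far apart, and 5.59% of all genes had a larger positive difference than the first. TEAD4 was level, at 8.19 in ALDH-high cells and 8.27 in control cells (-0.08), with its second probe set at 7.37 in ALDH-high cells and 7.32 in control cells (0.04). The other family members also differed little, by 0.06 for TEAD2 and -0.27 for TEAD3. The VGLL proteins compete with YAP and TAZ for TEADs or act beside them. Of 6 other TEAD and VGLL genes none was over 2-fold different, 3 lay above 0 and 3 below, and the most negative was VGLL1 at -0.29.

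LATS2, the kinase that phosphorylates YAP and TAZ and is itself one of their target genes, was lower on all 4 probe sets. The main probe set was 5.58 in ALDH-high cells and 6.09 in control cells (-0.51, or 1.42-fold lower). The next was 5.11 in ALDH-high cells and 6.25 in control cells (-1.13, or 2.19-fold lower), and its mean level was only slightly below that of the first. The dim ones were at 4.81 and 3.54 in ALDH-high cells against 4.90 and 4.03 in control cells. Of genes with 4 probe sets, 14.4% had all of them lower, and of genes with several, 2.01% had at least 1 over 2-fold lower. Whether LATS2 passes 2-fold therefore turns on the probe set chosen. Its paralog LATS1 differed by 0.37 on the main probe set (8.44 in ALDH-high cells and 8.07 in control cells), with dim ones from -0.23 to -0.05.

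AMOTL2, an angiomotin-like scaffold that binds YAP and holds it at cell junctions, had 1 probe set. It was 7.55 in ALDH-high cells and 7.29 in control cells (0.26, or 1.20-fold). The related AMOTL1 differed by -0.29 on its main probe set, and its others by -0.07, 0.11 and -0.35 (dim). AMOT differed by -0.21 at a dim level. AJUBA, a LIM-domain protein that binds LATS kinases and restrains them, was 6.10 in ALDH-high cells and 5.80 in control cells (0.30). Its second bright probe set differed by 0.33, and the dim pair by 0.04 and -0.08. The related LIMD1 differed by -0.18 on its main probe set, with others from -0.10 to 0.18, and WTIP by -0.09. The main differences of AMOTL2 and AJUBA were smaller than the poly-A control shift.

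**Figure D2:**
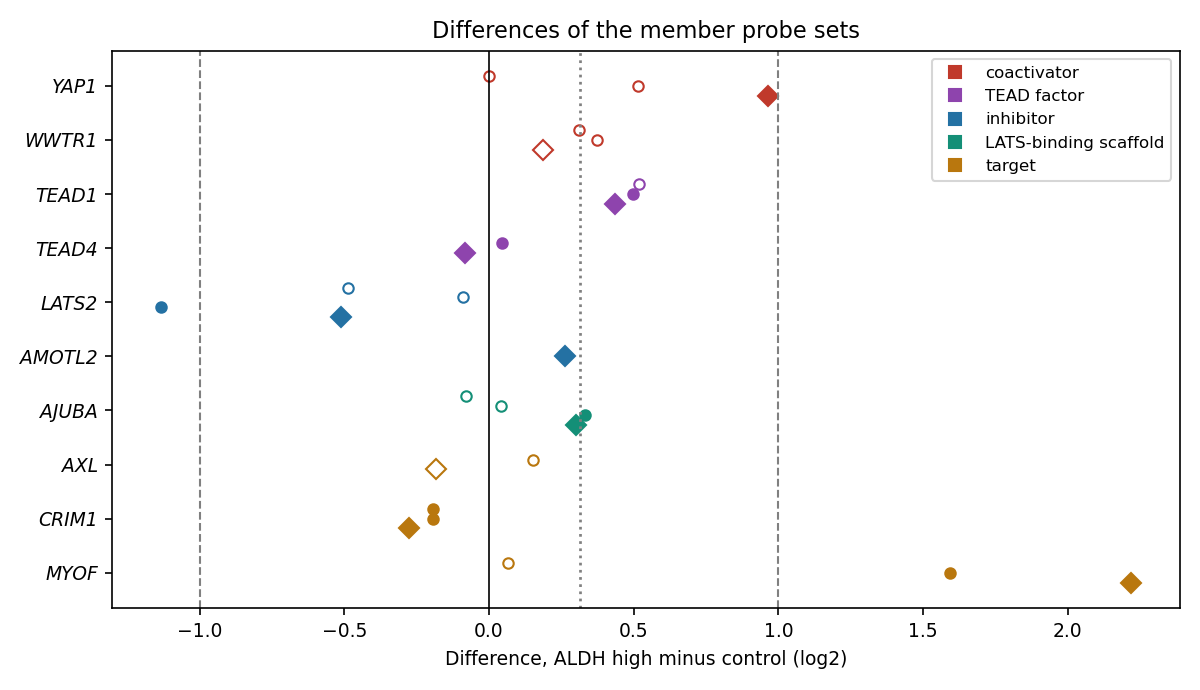
Difference in log2 level (horizontal axis, ALDH high minus control) of each member probe set, in 1 row per gene and coloured by role. Diamonds are main probe sets, open symbols are dim probe sets, dashed lines mark 2-fold and the dotted line the mean of the poly-A controls at 0.32. The YAP1 diamond lies at 0.97, just inside the upper 2-fold line, and 1 LATS2 point lies beyond the lower one at -1.13.

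The target genes did not differ together. MYOF encodes myoferlin, a membrane protein of the ferlin family that works in membrane repair and in the handling of growth factor receptors. Its main probe set was 7.97 in ALDH-high cells and 5.75 in control cells (2.22, or 4.66-fold), and 12 of 19775 genes had a larger positive difference. The second was 6.78 in ALDH-high cells and 5.18 in control cells (1.59, or 3.02-fold). The third, the only one whose ID does not end in _s_at, was dim at 5.05 in ALDH-high cells and 4.99 in control cells (0.07). The large difference thus rests on a pair of probe sets open to shared targets. Of the other ferlins, DYSF differed by -0.09, FER1L5 by 0.09 and OTOF by 0.30 (FER1L5 and OTOF at dim levels), so none came near the value of MYOF.

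AXL, a receptor tyrosine kinase activated by the ligand GAS6, was dim on both arrays. Its probe sets pointed opposite ways, 4.62 in ALDH-high cells against 4.80 in control cells (-0.18), and 4.30 in ALDH-high cells against 4.15 in control cells (0.15). Their mean was -0.02. In the same receptor family MERTK was over 2-fold lower, at 5.38 in ALDH-high cells and 6.57 in control cells (-1.19) on an _s_at probe set, with its other probe sets at -0.35 (_s_at) and 0. The ligand PROS1 differed by -0.75, on an _s_at probe set, and GAS6 by 0.08, so 1 of 4 relatives and ligands was over 2-fold lower, against 1.23% of all genes. CRIM1, a transmembrane protein that binds BMP ligands, was slightly lower on all 3 probe sets. The main one was 8.41 in ALDH-high cells and 8.68 in control cells (-0.28), and the others differed by -0.19 each. Such an all-lower pattern was found for 21.3% of genes with 3 probe sets.

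**Figure D3:**
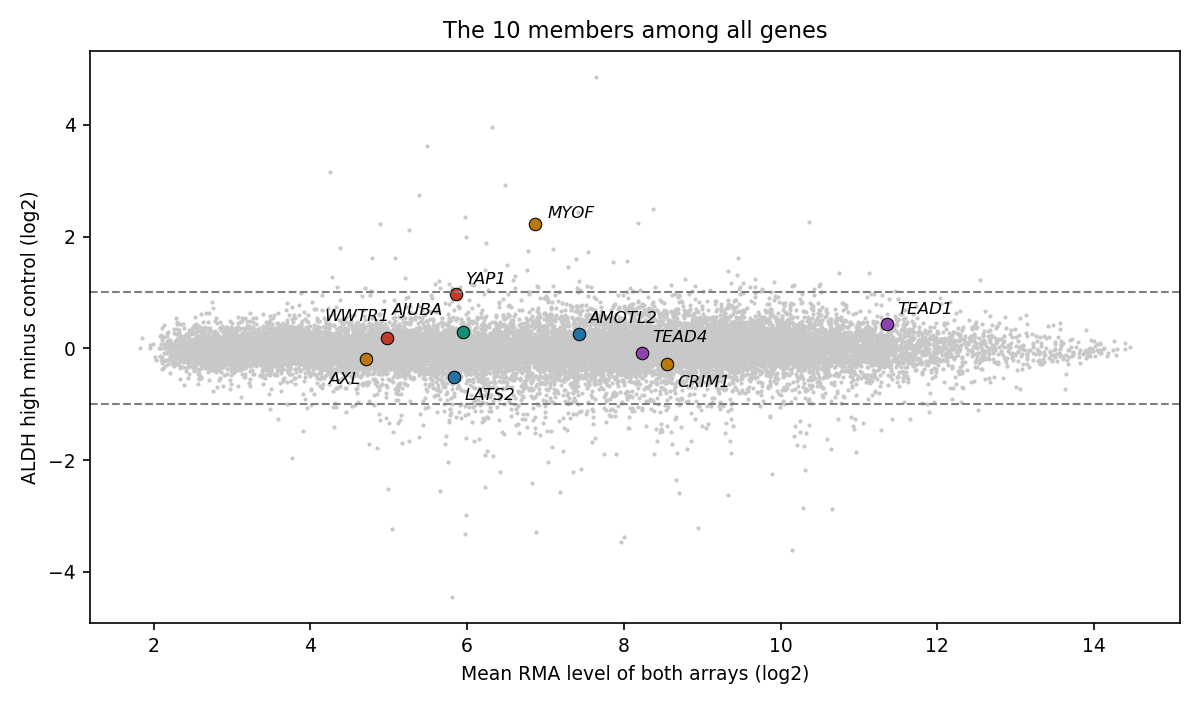
Mean log2 level of both arrays (horizontal axis) against the log2 difference, ALDH high minus control (vertical axis), for all 19775 genes (grey) and the 10 members (coloured by role as in the plot of member differences). Dashed lines mark 2-fold. MYOF stands at 2.22, YAP1 at 0.97, and the other 8 lie between -0.51 and 0.43.

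Target genes outside the 10 were also uneven. Of 18 measured, 9 lay above 0, 8 below and 1 was equal on their main probe sets, with a median of 0.07. By those probe sets 1 was over 2-fold higher and 1 lower, against 0.465% and 1.23% of all genes. NT5E, which encodes the adenosine-producing enzyme CD73 and was picked out by the study on these arrays, was over 2-fold higher, at 7.29 in ALDH-high cells and 3.67 in control cells. That difference rests on 1 of its 4 probe sets, the others being dim at 0.33, 0.31 and 0.24. CCN2, a secreted matricellular protein, was over 2-fold lower, at 5.24 in ALDH-high cells and 6.33 in control cells (-1.09). Its paralog CCN1, named after its value was seen, differed the other way on both probe sets, with 7.27 in ALDH-high cells and 6.31 in control cells on the first (0.96) and 6.35 in ALDH-high cells and 5.84 in control cells on the second (0.51). CCN1 and CCN2 are widely used as readouts of the pathway, and here they pointed opposite ways. GADD45A, a stress-induced growth arrest gene also named after its value was seen, was at -0.97. Probe sets other than the main one were over 2-fold lower for CCDC80 and RBMS3. CCDC80 was 3.38 in ALDH-high cells and 5.69 in control cells (-2.32) on an _s_at probe set, against -0.25 on its main one. RBMS3 was at -1.51 on a dim probe set, against 0.30 on its main one. Of genes with several probe sets, 2.01% had at least 1 over 2-fold lower.

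No gene of the Hippo kinase and retention lists passed 2-fold. Of 25 measured genes of the Hippo kinase cassette and its upstream regulators none was over 2-fold different, 9 lay above 0 and 16 below, and the median was -0.07. PTPN14, a phosphatase that binds YAP and is counted here and among the targets, was at 0.55 (7.18 in ALDH-high cells and 6.63 in control cells), with its dim probe sets at 0.60, 0.68 and 0. FRMD6, an upstream activator, was at -0.38 with a second probe set at -0.46. The kinase MAP4K4, which can activate LATS kinases and was named after its value was seen, was higher on all 5 probe sets, between 0.29 and 0.38. The share of all genes with 5 probe sets that had such a pattern was not computed. Of 11 genes for retention and degradation none passed 2-fold and 7 lay above 0. SFN, the epithelial 14-3-3 sigma, came close, at 11.63 in ALDH-high cells and 10.66 in control cells (0.97), and its other probe sets were at 0.97 and 0.79. YWHAH, another 14-3-3 protein, was at 0.37, and the remaining 14-3-3 genes differed by at most 0.13.

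**Figure D4:**
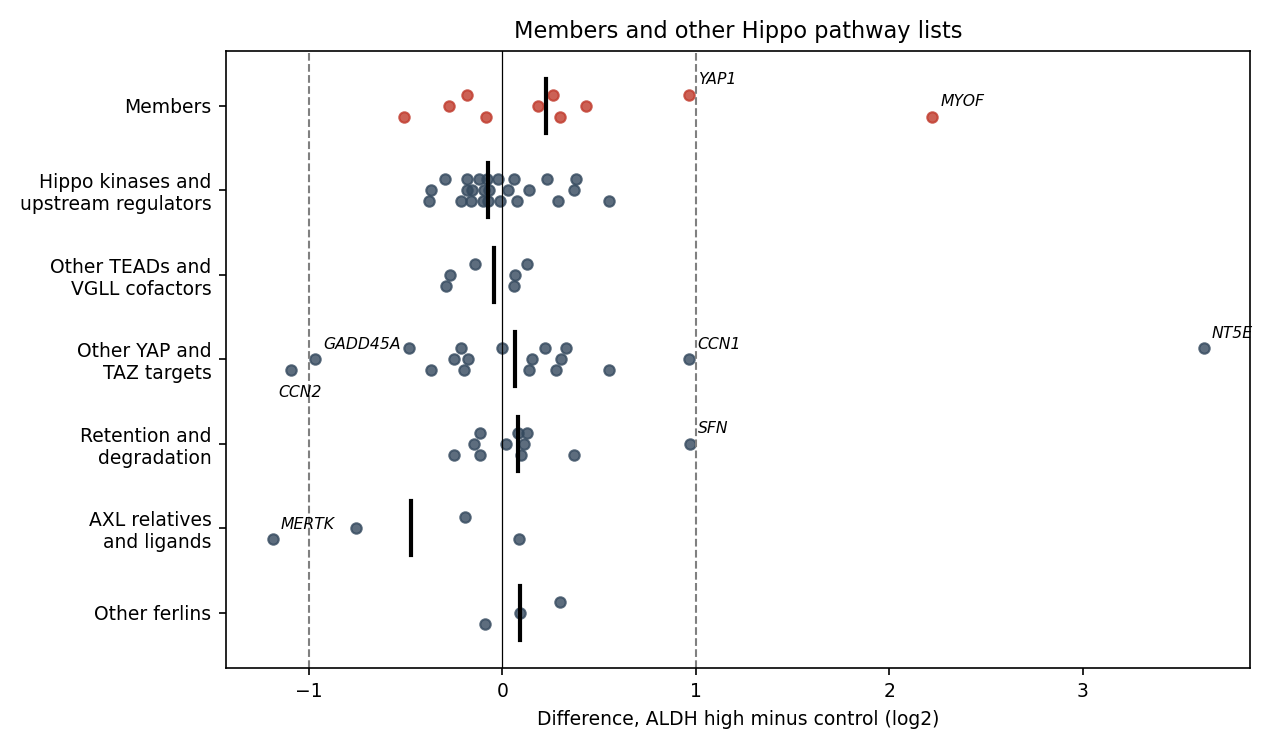
Log2 difference (horizontal axis, ALDH high minus control) of each gene on its main probe set, for the 10 members (red) and 6 lists of related genes (dark). Black bars are medians and dashed lines mark 2-fold. The medians lie between -0.47 and 0.22, and the genes beyond 2-fold are MYOF, NT5E, CCN2 and MERTK.

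YAP1, WWTR1, AXL and CCN genes are also abundant in fibroblasts and endothelial cells, so markers of those cells were read on the same arrays. Both samples are labelled as cells of the QGP1 line, and the labels name no other cell type. None of 6 fibroblast markers was over 2-fold different. On their main probe sets they ran from -0.28 for COL1A1 to 0.31 for COL3A1. LUM was at 2.58 in ALDH-high cells and 2.83 in control cells, and PDGFRB was equal on both arrays. The other probe sets of COL1A1 lay between -0.72 and 0.08, and those of COL3A1 between -0.52 and 0.45. All 4 endothelial markers lay below 0 on their main probe sets, between -0.21 (VWF) and -0.07, with CDH5 at -0.13. Of all 19775 genes, 9950 lay below 0. PECAM1 was at -0.12 on its main probe set and at -0.63, -0.48, -0.76 (dim) and 0.01 (dim) on the others. Of 4 leukocyte markers LYZ (-1.33) and CD14 (-1.02) were over 2-fold lower at dim levels, against 1.23% of all genes. PTPRC was at 3.56 in ALDH-high cells and 3.34 in control cells. The ratio of 3' to 5' signal, which reads RNA quality, was 1.83 in ALDH-high cells and 1.67 in control cells for ACTB, with 1.14 in ALDH-high cells and 1.15 in control cells for GAPDH. The part of these differences in the values above was not tested.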

How the data were processed

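The deposited table held log2 levels of 54675 probe sets, which, per the submitters' processing notes, the authors computed with RMA (background correction, quantile normalisation, median polish). The sources used here do not give its version, the arrays normalised together or a genome build. RNA was labelled with a 3' in vitro transcription kit, per the labels' protocols; such kits prime from the poly-A tail. Symbols were those of GEO's platform annotation, updated through Entrez ID with a RefSeq table (GRCh38.p14). Probe sets with several symbols were not used, and 62 Affymetrix controls were left out of the comparison. Each gene took its probe set of highest mean level. No filter was applied, and differences are ALDH high minus control. The number of arrays limits the precision. With 1 array per group there is no test.

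The members, the 11 further lists (97 genes, 92 measured) and the rules were chosen with earlier results of these data known. From each further list the genes over 2-fold are named, otherwise the pair with the largest difference. Paralogs of members and genes said to be named after their values were seen are extra. So are CHGA, SYP, GAS6, PROS1, LUM, PDGFRB, PECAM1 and PTPRC, which the rule does not select. CCDC80 and RBMS3 are also outside the rule, and were named for the values of probe sets other than the main one. Choosing probe sets and counting at 2-fold were also run on simulated data. That run does not show how well these steps work on the real arrays, where probe sets of the same gene can disagree, as those of MYOF did. Alternatives were other summaries of probe sets, no shared-target probe sets, a pseudocount of 32, a filter at the median level, centring, other thresholds and, added after seeing the data, subtraction of the poly-A control mean. Python 3.11.15, pandas 2.3.3 and numpy 2.4.6 were used.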

Additional observations from a re-analysis of the deposited data

How the results depend on the processing

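No paired analysis was possible because each group had 1 array, and for the same reason no replicate could be left out. Probe sets ending in _s_at or _x_at were left out in 1 alternative. There 0 of 8 members and 0 member probe sets were over 2-fold higher, since MYOF stood at 0.07 on its dim probe set. Of the same 8, 1 was over 2-fold lower, LATS2 at -1.13. Among all 17098 genes left in that setting, 79 were over 2-fold higher and 197 lower. AXL and CRIM1 had no probe set left there, nor WWTR1 and AXL with the filter at the median level. At a 1.5-fold threshold 2 members were higher, YAP1 and MYOF, as were 516 of all 19775 genes. With the pseudocount 0 member probe sets were over 2-fold lower, and likewise 0 at a 3-fold threshold. By gene, 1 member was higher and 0 lower in both settings. Among all 19775 genes, 50 were higher and 127 lower with the pseudocount, and 24 and 58 at 3-fold. Shares over all probe sets were not computed for these settings. YAP1 was 0.62 with the pseudocount, 0.49 as the mean of its probe sets and 0.51 as their median, and MYOF 1.72, 1.29 and 1.59. Subtracting the mean of the poly-A controls, an alternative chosen after seeing the data, put the median of the members at -0.091, YAP1 at 0.65, TEAD1 at 0.12 and LATS2 at -0.83, and turned WWTR1 (-0.13), AMOTL2 (-0.05) and AJUBA (-0.02) below 0. That subtraction moves every gene alike and put the median of all genes at -0.32. Of 66 recomputed member values 26 were identical to the reported ones, and 18 moved by more than the pooled SD of 0.23. Both counts are partly fixed by the settings and do not measure robustness. Centring subtracted a median of 0, and a filter that keeps the main probe set cannot change a value. The poly-A subtraction moves every gene by 0.32, which is more than that SD. The number of arrays and the dim levels of WWTR1 and AXL limit what these data can show.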
